A study of Homo sapiens with 6 samples.

Results

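The DEAD and DEAH box helicase genes are described here: the 54 protein-coding genes of the RefSeq table of GRCh38.p14 whose symbol starts with DDX or DHX followed by a digit, 38 DDX and 16 DHX genes, out of 20033 protein-coding genes. Membership was set by name alone, but the family was chosen with earlier results of these data known. For each gene, the bases under R-loop peaks were summed in its span plus 2 kb on each side. The peaks come from DRIP-seq, in which the S9.6 antibody pulls down DNA that is paired with RNA, in the human neuroblastoma line SH-SY5Y. The cells had been infected with a lentivirus that drives either shT2 or shNC3, each in 3 samples, from a U6 promoter and kept under puromycin, so both groups carry a hairpin and the selection. The study concerns knockdown of TDP-43, an RNA-binding protein that is lost from the nucleus in amyotrophic lateral sclerosis. From the names, shT2 was read as the hairpin against TDP-43 and shNC3 as its negative control, which the labels do not spell out. The labels call the samples of a hairpin replicates without saying whether they came from separate infections, so every p-value is set against the variation among these libraries alone, and that variation may be purely technical. A peak list holds no RNA or protein level, so the knockdown itself was not checked here.

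DEAD and DEAH box proteins use ATP to part RNA strands or to strip proteins from RNA. They drive the steps of the spliceosome, the assembly of ribosomes, and the export, translation and decay of mRNA, and several of them, such as DHX9, DDX5 and DDX21, have been described as enzymes that open the RNA-DNA hybrid of an R-loop. An R-loop forms where a transcript pairs with its template strand and leaves the other DNA strand single, often near the start of a gene with a GC-rich promoter. What follows concerns R-loop peaks on the genes that encode these enzymes, not the enzymes' activity.

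Sequences upstream of the genes show what a peak edge is where a promoter holds a cut site. The nucleic acids were cut with BsrGI, EcoRI, HindIII, SspI and XbaI before the pulldown, per the labels' protocols. RefSeq promoter sequences were at hand for 49 of the 54 genes. Of these, 8 hold a site of an enzyme (TGTACA for BsrGI, GAATTC for EcoRI, AAGCTT for HindIII, AATATT for SspI and TCTAGA for XbaI, each its own reverse complement) in the 250 bases before the start, which is 16.3% against 15.8% of all 15842 promoters. Over all promoters, with 50 bases after the start added, 2791 windows hold a site, and 2145 peak edges of the 6 samples fell inside them. Of these edges, 2039 (95.1%) lay exactly at the end that the enzyme leaves after filling in, and the share was between 93.4% and 96.8% in each sample. Among the helicase genes, 12 of 13 such edges lay at a cut end. They belong to DDX17, at 157 bases before the start in all 6 samples, and to DDX21, at 169 bases before the start in all 6 samples. Peak edges in windows with a site thus mostly lay at the cut, so there a covered length is bounded by the restriction fragment. A further 5850 edges fell in promoter windows without a site. Such windows outnumber the 2791 with one, so the counts of edges cannot be compared directly. Edges far from the promoters were not compared with cut sites.

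The 250 bases before the start are shown for 6 genes on the gene's own strand, 5′ to 3′, from the RefSeq table of GRCh38.p14. DDX17 and DDX21 are shown for their cut sites, in capitals (BsrGI in DDX17, XbaI in DDX21). DDX3X and DHX9 are shown because peaks covered all 250 bases in every sample. DDX28 and DDX39B are shown because peaks were there in all 3 samples of only 1 hairpin. Capitals in DDX3X and DDX39B mark runs of at least 4 G (GGGG), those in DDX28 runs of at least 4 C (CCCC, the same run on the other strand), and those in DHX9 runs of either.
DDX17, chr22:38506312-38506561, minus strand: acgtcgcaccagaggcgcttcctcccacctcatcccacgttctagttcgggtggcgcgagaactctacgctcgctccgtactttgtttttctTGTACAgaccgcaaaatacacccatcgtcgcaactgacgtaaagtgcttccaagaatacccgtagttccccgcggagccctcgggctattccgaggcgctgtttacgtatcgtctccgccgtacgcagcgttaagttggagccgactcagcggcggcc
DDX21, chr10:68955920-68956169, plus strand: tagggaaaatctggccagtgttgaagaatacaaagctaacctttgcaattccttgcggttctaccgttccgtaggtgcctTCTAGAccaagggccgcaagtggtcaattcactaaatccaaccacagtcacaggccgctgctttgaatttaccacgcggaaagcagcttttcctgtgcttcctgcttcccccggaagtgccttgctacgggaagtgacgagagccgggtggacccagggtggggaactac
DDX3X, chrX:41333058-41333307, plus strand: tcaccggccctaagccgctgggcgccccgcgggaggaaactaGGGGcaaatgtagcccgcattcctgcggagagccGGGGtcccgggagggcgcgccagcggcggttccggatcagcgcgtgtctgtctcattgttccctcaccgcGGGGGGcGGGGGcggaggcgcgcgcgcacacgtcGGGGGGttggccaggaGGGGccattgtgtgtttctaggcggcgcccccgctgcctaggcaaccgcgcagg
DHX9, chr1:182839097-182839346, plus strand: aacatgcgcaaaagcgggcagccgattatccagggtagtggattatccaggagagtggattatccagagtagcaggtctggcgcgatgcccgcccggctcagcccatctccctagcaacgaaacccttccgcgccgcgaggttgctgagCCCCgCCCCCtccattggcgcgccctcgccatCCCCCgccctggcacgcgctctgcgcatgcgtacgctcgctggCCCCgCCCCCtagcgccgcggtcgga
DDX28, chr16:68023233-68023482, minus strand: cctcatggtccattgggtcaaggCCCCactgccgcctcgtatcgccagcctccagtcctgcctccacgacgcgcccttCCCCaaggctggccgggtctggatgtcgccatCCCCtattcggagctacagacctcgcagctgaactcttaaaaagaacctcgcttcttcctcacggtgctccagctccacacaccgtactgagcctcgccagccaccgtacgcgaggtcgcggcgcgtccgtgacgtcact
DDX39B, chr6:31542004-31542253, minus strand: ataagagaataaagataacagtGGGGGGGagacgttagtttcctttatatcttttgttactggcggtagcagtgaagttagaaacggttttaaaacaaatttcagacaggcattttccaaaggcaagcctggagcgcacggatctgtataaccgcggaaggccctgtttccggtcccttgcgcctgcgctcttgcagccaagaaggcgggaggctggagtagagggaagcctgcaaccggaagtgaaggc

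Peaks covered 157 of these bases in DDX17 and 169 in DDX21 in every sample. In DDX28 they covered all 250 bases in each shT2 sample and none in shNC3. In DDX39B they covered none in shT2 and 250, 122 and 227 bases in shNC3 replicates 1 to 3. DDX6, whose sequence is not shown, met the same rule, with none in shT2 and 250, 55 and 24 bases in shNC3 replicates 1 to 3. Over the 49 promoters, 20 (40.8%) were at least partly covered in every sample, against 17.5% of all promoters, and 15 were covered in none. The 20 had a median GC content of 64.4% and a median of 27 CpG, and the 15 had 56.0% and 13. Over all promoters the same medians were 66.0% and 22 for those covered in every sample, and 58.4% and 12 for those covered in none. A GGGG run stood on the gene's strand of 65.3% of the helicase promoters and of 76.6% of all promoters. For CCCC the shares were 69.4% and 76.8%.

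Peaks were found on most of the family. At least 1 sample had a peak on 46 of the 54 genes, and 44 genes had one in all 6 samples, while 65.1% and 46.9% of all protein-coding genes did. The 8 genes with no peak in any sample were the germ-line helicases DDX4, DDX25, DDX43 and DDX53, the interferon-linked DDX60 and DDX60L, the translation factor DHX29, and DDX3Y. DDX10 had a peak in 2 samples of each hairpin. DHX35 had one in every shT2 sample and in shNC3 replicate 2 only. Over the genes with a peak, the mean covered length over all samples ran from 0.423 kb to 33.6 kb, with a median of 7.11 kb.

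On balance the helicase genes carried longer peak coverage in shT2. Summed over the family and scaled to equal totals, the covered length was 460.7, 455.8 and 463.4 kb in shT2 replicates 1 to 3 and 407.9, 410.7 and 407.6 kb in shNC3 replicates 1 to 3, so the hairpins did not overlap. All 46 genes with a peak entered the fit of limma over 11769 genes. At an adjusted p under 0.05, 21 of them (45.7%) were longer in shT2, where 24.1% of all tested genes were, and 7 (15.2%) were shorter, where 27.2% of all tested genes were. The median difference was 0.16 on the log2 scale for the family and −0.08 for all tested genes. A log2 difference above 1 was found in 11 of the longer genes, and none of the shorter genes had one below −1. Over all 11769 tested genes, 1470 were called longer with a difference above 1 and 1148 shorter with one below −1. In bulk cells, more cells with an R-loop and longer R-loops per cell cannot be told apart. The 3 samples of 1 hairpin lay above those of the other for 22 genes in the direction of shT2 and for 11 in that of shNC3, against 27.6% and 37.4% of all tested genes.

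**Figure D1:**
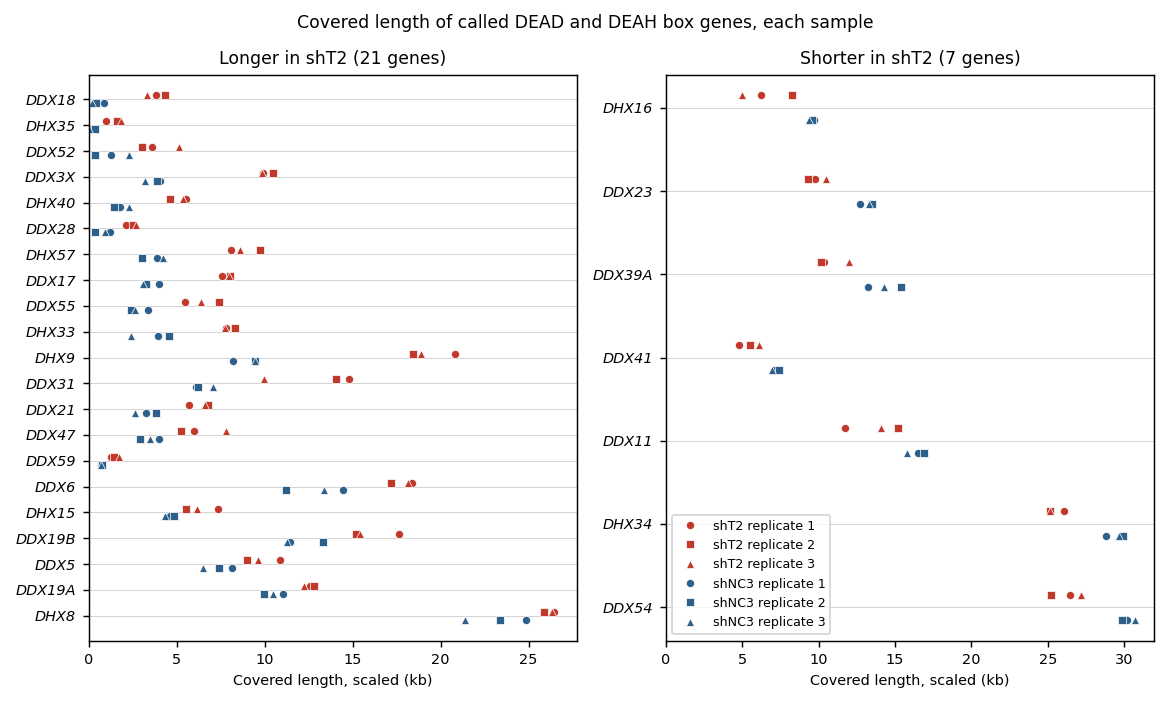
Scaled covered length in kb of the 21 helicase genes called longer (left) and the 7 called shorter (right) in shT2. Each point is 1 sample, red for shT2 and blue for shNC3, and the shape is the replicate; for each of the 28 genes all red points lie on 1 side of all blue points, which the calls favour.

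The scaling to equal totals bears on the shorter genes. DDX49, a helicase of ribosome assembly, had the same 12916 covered bases in every sample, its whole window, and still received a difference of −0.15 (adjusted p = 0.075) because the shT2 totals are longer. Without the scaling its difference was 0.00, the median of all tested genes moved up by 0.14 to 0.06, and the family split into 23 longer and 2 shorter genes rather than 21 and 7. Over all tested genes the split was then 3179 longer and 2044 shorter, against 2842 and 3199 with the scaling. The 2 shorter genes that remained without scaling were DDX23 and DDX39A. A difference near −0.15 is thus what an unchanged window has under the scaling.

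The shT2 libraries were deeper. The depth recovered from the lists was 3.08 to 3.46 fragments per base in shT2 and 1.65 to 1.79 in shNC3, the lists held 49068 to 50971 and 42717 to 45390 peaks, and the covered length was 72.7 to 78.2 and 62.9 to 70.5 Mb. To equalise depth, the count at each summit was thinned to the shallowest library, and peaks that then missed a common p cut were dropped. After this, 22 of 45 tested helicase genes were longer and 5 shorter, against 21.7% and 24.0% of all genes tested that way. All 21 longer genes were called again. Kept peaks retained their full width, so the effect of depth on peak width and on the joining of peaks was not tested. SH-SY5Y cells are noradrenergic neuroblasts, and 7 of 8 noradrenergic marker genes had peaks in all samples, with TH the exception. Their covered lengths summed to between 70.6 and 77.4 kb in the shT2 samples and between 66.8 and 74.4 kb in the shNC3 samples. The 6 mesenchymal markers summed to 13.1 to 15.2 kb in shT2 and 32.2 to 35.3 kb in shNC3. COL1A1 and PRRX1 were shorter in shT2, and PRRX1 had no peak there. The part of this marker difference in the helicase results was not tested.

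The large role groups each held genes called longer and genes called shorter. The roles were assigned from textbook knowledge, and the differences are drawn by role.

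**Figure D2:**
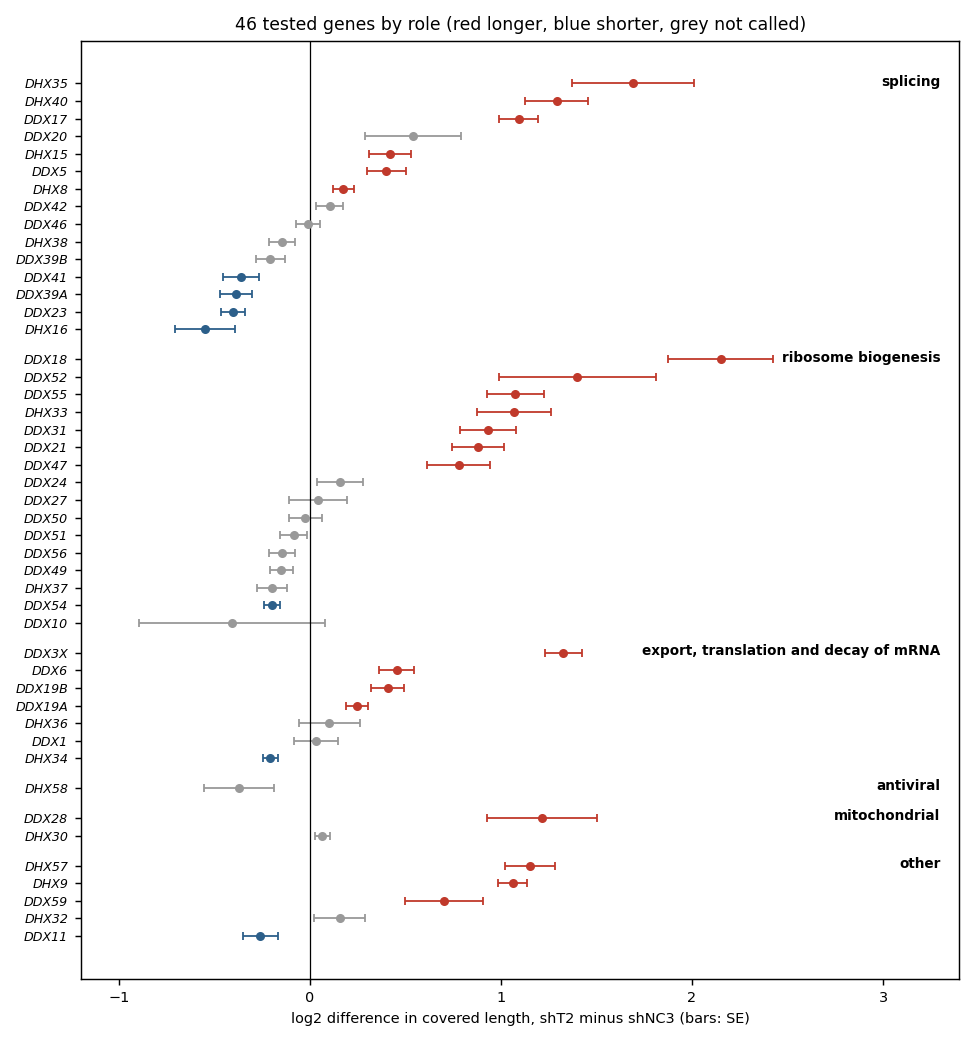
Log2 difference in scaled covered length (shT2 minus shNC3) of the 46 tested helicase genes by role, with bars of 1 standard error. Red genes were called longer, blue genes shorter and grey genes not called; splicing genes stand on both sides of 0, while 7 of the 8 called ribosome biogenesis genes lie to the right.

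Gene positions below are those of the RefSeq annotation of GRCh38.p14, and a covered length takes in exons, introns and flanks alike. Among the 15 splicing helicases, 6 (40.0%, against 24.1% of all tested genes) were longer in shT2, 4 (26.7%, against 27.2%) shorter and 5 not called, with a median difference of 0.10. The share of shorter splicing genes was thus near that of all genes. DHX35, found in the catalytic spliceosome, covered 1.00, 1.60 and 1.85 kb in shT2 replicates 1 to 3 and 0, 0.373 and 0 kb in shNC3 replicates 1 to 3. All shT2 samples lay above all shNC3 samples (log2 difference 1.69, SE 0.32, adjusted p = 0.0041). DHX40, a DEAH protein related to the spliceosome-release helicase DHX15, covered 5.54, 4.63 and 5.35 kb in shT2 and 1.79, 1.43 and 2.30 kb in shNC3, with no overlap (1.29, SE 0.16, adjusted p = 0.00067). DDX17 (chr22:38483438-38506311), a coregulator of transcription and splicing, covered 7.57, 8.02 and 7.97 kb in shT2 and 3.97, 3.27 and 3.06 kb in shNC3. The shT2 samples lay close together and well above the others (1.09, SE 0.10, adjusted p = 0.00019).

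DDX5, the close paralog of DDX17, rose less. Its covered length was 10.9, 9.01 and 9.60 kb in shT2 and 8.13, 7.43 and 6.47 kb in shNC3, again without overlap (0.40, SE 0.10, adjusted p = 0.015). The difference between the paralogs was not tested. DHX15 itself, which takes spent spliceosomes apart, was longer by 0.42 (SE 0.11, adjusted p = 0.017), and without shT2 replicate 1 the adjusted p was 0.054. DHX8, which frees the finished mRNA, covered 26.4, 25.9 and 26.3 kb in shT2 and 24.8, 23.4 and 21.4 kb in shNC3. This was the smallest of the 21 longer differences (0.18, SE 0.06, adjusted p = 0.037), and its adjusted p was 0.070 to 0.10 when any sample other than shNC3 replicate 1 was left out.

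Of the shorter splicing genes, DHX16, which starts the first catalytic step, covered 6.22, 8.26 and 4.97 kb in shT2 and 9.72, 9.56 and 9.34 kb in shNC3. The shT2 samples were widely spread and all below shNC3 (−0.55, SE 0.16, adjusted p = 0.022). Without shNC3 replicate 1 or shNC3 replicate 2 the adjusted p was 0.051 and 0.058. DDX23 (chr12:48829756-48852163), part of the U5 particle, covered 9.78, 9.31 and 10.5 kb in shT2 and 12.7, 13.5 and 13.3 kb in shNC3 (−0.40, SE 0.06, adjusted p = 0.0016). The samples of each hairpin lay close together, with a gap of more than their spread between the groups.

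DDX39A and DDX39B are near-identical helicases of mRNA export and splicing. DDX39A (chr19:14408798-14419383) covered 10.4, 10.1 and 12 kb in shT2 and 13.3, 15.4 and 14.3 kb in shNC3 (−0.39, SE 0.08, adjusted p = 0.0071). DDX39B covered 11.2, 11.5 and 13.2 kb in shT2 and 13.3, 14.6 and 13.7 kb in shNC3, and missed the threshold (−0.21, SE 0.08, adjusted p = 0.052). The paralogs thus lay in the same direction, and only DDX39A was called, with the difference between them not tested. Without shT2 replicate 3, the highest shT2 sample of DDX39B, that gene had an adjusted p of 0.018. DDX41, a spliceosome-associated helicase and a gene of inherited myeloid neoplasms, covered 4.76, 5.53 and 6.08 kb in shT2 and 7.05, 7.40 and 6.92 kb in shNC3 (−0.36, SE 0.10, adjusted p = 0.017). The other splicing helicases DDX20, DDX42, DDX46 and DHX38 were not called, with differences from −0.15 to 0.54.

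Ribosome biogenesis helicases were called longer more often than shorter. Of 16 genes, 7 (43.8%, against 24.1% of all tested genes) were longer, 1 (6.25%, against 27.2%) was shorter and 8 were not called, and the median difference was 0.10. DDX18 (chr2:117814691-117832377), a nucleolar helicase, had the largest log2 difference of the family with the pseudocount of 500 bases. DHX35, at far lower coverage, was ahead of it with a pseudocount of 100 bases (3.20 against 2.85) and in the ratio of the means (11.9 against 7.52). DDX18 covered 3.81, 4.33 and 3.33 kb in shT2 and 0.890, 0.432 and 0.205 kb in shNC3 (2.15, SE 0.28, adjusted p = 0.00071). Its lowest shT2 sample was above 3 kb and its highest shNC3 sample below 1 kb.

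DDX52, of small-subunit processing, covered 3.58, 3.04 and 5.15 kb in shT2 and 1.29, 0.384 and 2.31 kb in shNC3. The samples spread widely within each hairpin (1.40, SE 0.41, adjusted p = 0.025), and without shT2 replicate 3 the adjusted p was 0.073. DDX55, of large-subunit assembly, covered 5.48, 7.40 and 6.37 kb in shT2 and 3.36, 2.39 and 2.61 kb in shNC3 (1.08, SE 0.15, adjusted p = 0.0011). DHX33 covered 7.78, 8.32 and 7.77 kb in shT2 and 3.92, 4.58 and 2.42 kb in shNC3 (1.07, SE 0.19, adjusted p = 0.0033). For both genes every shT2 sample was above every shNC3 sample.

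DDX31 covered 14.8, 14.1 and 9.95 kb in shT2 and 6.08, 6.20 and 7.09 kb in shNC3 (0.93, SE 0.15, adjusted p = 0.0018). DDX21, the nucleolar helicase of rRNA transcription and processing, covered 5.69, 6.77 and 6.60 kb in shT2 and 3.26, 3.82 and 2.65 kb in shNC3 (0.88, SE 0.14, adjusted p = 0.0016). DDX47 covered 6.01, 5.23 and 7.78 kb in shT2 and 3.99, 2.89 and 3.51 kb in shNC3 (0.78, SE 0.16, adjusted p = 0.0065). None of the 3 overlapped between hairpins, and shT2 replicate 3 was the lowest shT2 sample of DDX31 and the highest of DDX47. DDX50, the paralog that neighbours DDX21 on chromosome 10, was not called (−0.02, SE 0.09, adjusted p = 0.82). DDX54 was the only shorter gene of this group, with 26.4, 25.2 and 27.2 kb in shT2 and 30.2, 29.9 and 30.7 kb in shNC3 (−0.20, SE 0.04, adjusted p = 0.0061). Its difference was −0.05 without scaling and was then not called.

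The helicases of export, translation and decay of mRNA held 7 tested genes of 10, and 4 were longer, 1 shorter and 2 not called, with a median of 0.25. Shares of 7 genes are coarse, at 57.1% longer (against 24.1% of all tested genes) and 14.3% shorter (against 27.2%). DDX3X (chrX:41333308-41364472), a helicase of translation initiation, covered 9.90, 10.5 and 9.83 kb in shT2 and 4.08, 3.90 and 3.21 kb in shNC3. With 2.70 times the mean covered length and a narrow spread, it had the second-smallest adjusted p of the family (1.33, SE 0.10, adjusted p = 7.0e-05). DDX6, a translational repressor of P-bodies, covered 18.4, 17.2 and 18.2 kb in shT2 and 14.5, 11.2 and 13.4 kb in shNC3 (0.45, SE 0.09, adjusted p = 0.0053). All shT2 samples of DDX6 lay above all shNC3 samples.

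DDX19A and DDX19B are adjacent genes that encode helicases of mRNA export at the nuclear pore. DDX19A covered 12.6, 12.8 and 12.2 kb in shT2 and 11, 9.96 and 10.5 kb in shNC3 (0.25, SE 0.06, adjusted p = 0.0095). DDX19B covered 17.6, 15.2 and 15.4 kb in shT2 and 11.5, 13.3 and 11.3 kb in shNC3 (0.41, SE 0.08, adjusted p = 0.0064). Both were longer with no overlap of the samples. DHX34, a factor of nonsense-mediated decay, was shorter, with 26.1, 25.2 and 25.1 kb in shT2 and 28.8, 30.0 and 29.7 kb in shNC3 (−0.21, SE 0.04, adjusted p = 0.0035), and had a difference of −0.05 without scaling, where it was not called. DDX1, of the tRNA ligase complex, covered 6.76, 6.55 and 6.98 kb in shT2 and 6.76, 7.70 and 5.51 kb in shNC3, and its samples overlapped (0.03, SE 0.12, adjusted p = 0.82). DHX36, which unfolds G-quadruplexes, covered 3.68, 3.15 and 3.39 kb in shT2 and 2.54, 3.92 and 3.08 kb in shNC3, also with overlap (0.10, SE 0.16, adjusted p = 0.61).

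Among the remaining genes, DHX9 and DHX57 were clearly longer in shT2. DHX9 (chr1:182839347-182887982), which unwinds RNA-DNA hybrids, covered 20.8, 18.4 and 18.9 kb in shT2 and 8.19, 9.47 and 9.43 kb in shNC3. Its mean was 2.14 times higher in shT2, and it had the smallest adjusted p of the family (1.06, SE 0.08, adjusted p = 6.9e-05). DHX57 covered 8.11, 9.75 and 8.58 kb in shT2 and 3.91, 3.01 and 4.23 kb in shNC3 (1.15, SE 0.13, adjusted p = 0.00040). In both genes the lowest shT2 sample was far above the highest shNC3 sample.

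DDX59 was longer by 0.70 (SE 0.20, adjusted p = 0.023) at low coverage, 1.27 to 1.72 kb in shT2 and 0.672 to 0.754 kb in shNC3. Leaving out any sample other than shNC3 replicate 2 brought its adjusted p to between 0.055 and 0.10. The difference of DDX59 turned negative and was not called with peaks of a fold of at least 5 (−0.46), a −log10 q of at least 5 (−0.062), lists of equal covered length (−0.14) or both gene ends alone (−0.39). DDX11, a DNA helicase of sister chromatid cohesion with near-identical copies elsewhere in the genome, covered 11.7, 15.2 and 14.1 kb in shT2 and 16.5, 16.9 and 15.8 kb in shNC3 (−0.26, SE 0.09, adjusted p = 0.047). Reads of its copies may be placed in it, and the adjusted p was 0.063 to 0.12 when any sample other than shT2 replicate 2 was left out. Of the mitochondrial helicases, DDX28 of the mitochondrial ribosome covered 2.11, 2.51 and 2.71 kb in shT2 and 1.18, 0.335 and 0.936 kb in shNC3 (1.21, SE 0.29, adjusted p = 0.011). DHX30, the gene with the longest coverage of the family, had 34.9, 33.4 and 34.9 kb in shT2 and 31.9, 33.0 and 33.7 kb in shNC3 and was not called (0.06, SE 0.04, adjusted p = 0.20). DDX42 covered 19.0, 17.5 and 20.5 kb in shT2 and 16.6, 17.9 and 18.5 kb in shNC3, likewise not called (0.10, SE 0.07, adjusted p = 0.25). The antiviral sensor DHX58 was the only tested gene of its group and was not called (−0.37, SE 0.18, adjusted p = 0.13).

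The genes whose products have a described role in RNA-DNA hybrids included longer and shorter ones. Of 13 such genes, all tested, 7 (53.8%, against 24.1% of all tested genes) were longer and 3 (23.1%, against 27.2%) shorter, the latter near the share of all genes. By name, DHX9, DDX5, DDX17, DDX18, DDX19A, DDX21 and DDX47 were longer in shT2, DDX23, DDX39A and DDX41 shorter, and DDX1, DDX39B and DHX36 not called. Their summed covered length was 110.7 to 118.5 kb in shT2 and 92.6 to 99.8 kb in shNC3, and their median difference was 0.25, against 0.16 in the whole family.

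Within the longer genes the added coverage lay in the gene body more than at the start. The window of 2 kb around the start, the same window around the far end and the body between them were fitted separately for genes with a known strand. At the start, 35 helicase genes were tested and 2 were longer (8.93% of all start windows tested were) and 4 shorter (24.0% of all). In the body, 39 were tested and 17 were longer (26.1% of all) and 4 shorter (21.0% of all). At the far end, 30 were tested, with 8 longer (18.0% of all) and 6 shorter (13.1% of all). The median differences of the family were −0.13, 0.19 and −0.05 in the start, body and far end, and those of all genes were −0.14, −0.03 and −0.11.

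Of the 15 longer genes with start and body both tested, the body difference was above the start difference in 14. Among all longer genes it was so in 81.6%, so this is no feature of the helicase genes alone. Of the same 15 genes, 1 (DHX8) was also longer at the start, while 23.6% of all longer genes with both windows tested were. DDX28, the other gene longer at its start, has no body window. The body count fell when any shT2 sample was left out. It was 11 longer genes without shT2 replicate 1, 12 without shT2 replicate 2 and 11 without shT2 replicate 3. Without shT2 replicate 1, 2 bodies were shorter. Over all tested genes, the count longer in span plus 2 kb also fell, from 2842 to 2146, 2100 and 2155 without shT2 replicates 1 to 3. The counts of longer far ends were 2 without shT2 replicate 1, 2 without shT2 replicate 2 and 3 without shT2 replicate 3. Shorter far ends numbered 2 without shT2 replicate 1 and 2 without shT2 replicate 2, and 1 start window was shorter without shNC3 replicate 1 and without shNC3 replicate 3.

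**Figure D3:**
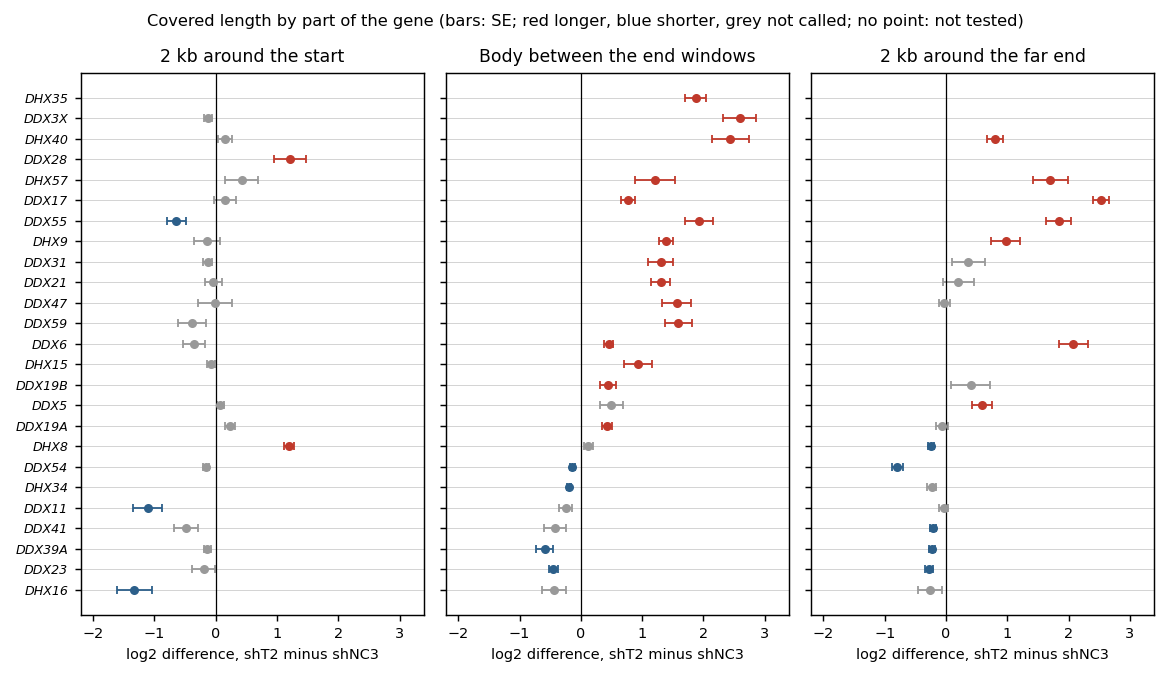
Log2 difference in scaled covered length (shT2 minus shNC3) in the start window, the body and the far end window of the called helicase genes with a known strand, with bars of 1 standard error. Red points were called longer, blue points shorter, grey points not called and windows not tested have no point; for most longer genes the body point lies right of the start point.

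DDX3X shows the pattern most plainly. A peak region of 3074 bases, from 0.679 kb before to 2.39 kb after the start, was present to the base in all 6 samples. In the scaled start window this gave 2.59, 2.43 and 2.62 kb in shT2 and 2.70, 3.03 and 2.80 kb in shNC3, which was not called (−0.13, adjusted p = 0.14). The body held 7.32, 8.04 and 7.21 kb in shT2 and 1.38, 0.873 and 0.411 kb in shNC3 (2.59, SE 0.27, adjusted p = 0.0012). The strongest summit of the gene, 1.03 kb after the start in every sample, stood at 56.5, 58.1 and 61.1 times the mean coverage of its library in shT2 and at 60.9, 56.9 and 63.1 times in shNC3. Its height overlapped between the hairpins while the body did not.

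DHX9 had 3.17, 1.85 and 2.28 kb at the start in shT2 and 2.09, 3.55 and 2.57 kb in shNC3, with overlap (−0.14, adjusted p = 0.59). Its body held 14.9, 14.4 and 14.2 kb in shT2 and 5.42, 4.32 and 6.00 kb in shNC3 (1.39, SE 0.12, adjusted p = 0.00061). A region of 3380 bases beginning 4.42 kb after the start was filled in each shT2 sample, while peaks took 1889, 933 and 2433 bases of it in shNC3. DHX9 was longer at the far end too (0.97, SE 0.23, adjusted p = 0.024).

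DHX40 had a start window that was not called (0.16, adjusted p = 0.29) and a body of 3.19, 2.42 and 2.99 kb in shT2 against 0, 0 and 0.450 kb in shNC3 (2.44, SE 0.30, adjusted p = 0.0020). In DDX17 the far end carried the largest part. Its far end window held 2.42, 2.28 and 2.45 kb in shT2 and no peak in shNC3, so no fold is given. Around it a region of 5496 bases, 17.9 to 23.4 kb after the start, was filled in each shT2 sample and to 1942, 1239 and 1445 bases in shNC3. DDX6 had 2.11, 1.01 and 1.89 kb at the far end in shT2 and none in shNC3. In both genes all 3 shT2 samples had a peak at the far end and no shNC3 sample did.

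Some genes ran the other way at the start. DDX55 was shorter there, with 1.10, 1.42 and 1.02 kb in shT2 and 2.51, 1.87 and 1.97 kb in shNC3 (−0.64), and longer in the body, with 2.73, 4.34 and 4.22 kb in shT2 and 0.849, 0.519 and 0.480 kb in shNC3 (1.93). DHX16 had no peak at the start in shT2 and 1.16, 0.373 and 0.868 kb in shNC3. DDX11 had none in shT2 and 0.869, 0.474 and 0.438 kb in shNC3. These 3 genes and DDX39B were the 4 called shorter at the start. DHX8 was longer at the start, with 3.47, 3.27 and 3.23 kb in shT2 and 1.27, 1.09 and 1.14 kb in shNC3 (1.20, SE 0.09, adjusted p = 0.00036), and its body was not called (0.12, adjusted p = 0.21). DDX28, a short gene, was the other one longer at the start (1.21).

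**Figure D4:**
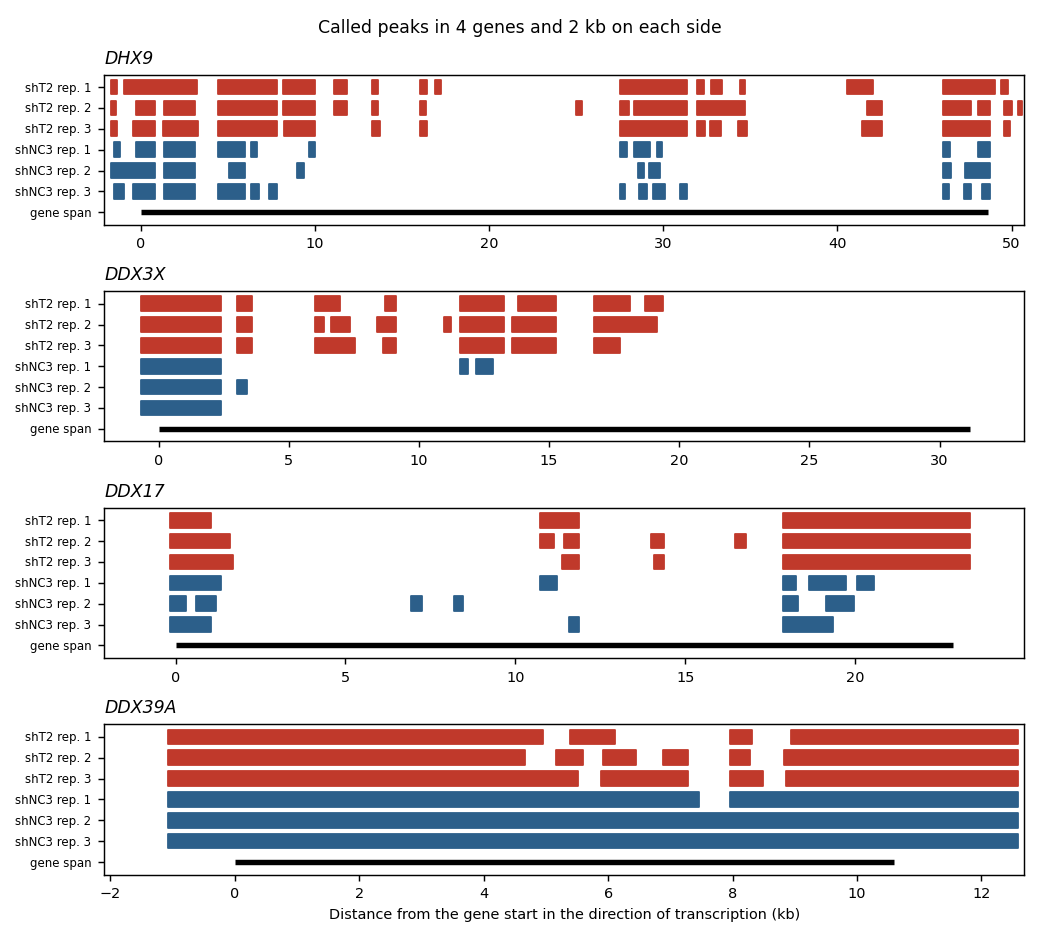
Called peaks of each sample (red shT2, blue shNC3) over 4 helicase genes and 2 kb on each side, with the distance from the gene start in kb along the direction of transcription. The black bar is the gene span; in DDX3X the start peak is alike in all 6 samples and most body peaks are red only, whereas in DDX39A the blue peaks run together and the red ones leave gaps.

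In DDX39A the shT2 coverage was broken rather than gone. The body held 3.88, 3.94 and 5.33 kb in shT2 and 6.12, 7.43 and 6.87 kb in shNC3 (−0.59, SE 0.14, adjusted p = 0.017), while the start window was not called (−0.14, adjusted p = 0.11). Its strongest summit inside the gene window was 9.33 kb after the start in all 5 samples that had one there, at 21.1, 24.9 and 21.1 times the library's mean coverage in shT2 and 43.6 and 47.0 times in shNC3 replicates 1 and 3. In these samples the height was lower in shT2, without overlap. The paralog DDX39B had its summit 5.89 to 5.90 kb after the start in every sample. Its heights in shT2 sat at the limit of the p-values that the calculation could hold, so they are not compared. The authors' peak caller also gave a fold over local background there. For DDX39A it was 14.2, 16.6 and 14.2 in shT2 and 25.7 and 27.6 in shNC3 replicates 1 and 3. For DDX39B it was 66.0, 57.5 and 63.0 in shT2 and 52.3, 52.4 and 47.0 in shNC3. At an equal relative height this fold is larger in a deeper library, and the shT2 libraries were deeper. It is therefore not compared between the hairpins. Summits lay within 10 bases of each other in all 6 samples in 6 of the 38 genes with a summit in the window in each sample: DDX3X, DDX23, DDX39B, DDX41, DDX56 and DHX34. DDX5, whose covered length was called longer, had strongest summits of 77.0 and 78.3 times in shT2 replicates 1 and 3 and 77.7, 76.9 and 71.1 times in shNC3, which overlap. The height in shT2 replicate 2 sat at the same limit and is left out. The authors' fold at these summits was 38.9, 50.1 and 39.6 in shT2 and 33.3, 19.2 and 18.0 in shNC3. The summit positions moved between 1.92 and 3.00 kb after the start. This fold too is not compared between the hairpins, since the libraries differ in depth.

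Along the genes, the share of bases under peaks in the first 2 kb of the longer genes ranged from 56.0 to 60.5% over the shT2 samples and from 44.4 to 53.6% over the shNC3 samples. Between 5 and 10 kb, over 17 genes, the shares were 19.8 to 22.8% and 3.54 to 5.68%. Since these genes were grouped by their covered length, the shares describe where it lies and are no test. For the 7 shorter genes the share in the 2 kb before the start ran from 29.4 to 31.6% in shT2 and from 32.0 to 40.7% in shNC3, and between 20 and 40 kb, over only 4 genes, it was 79.3 to 85.1% and 80.7 to 88.7%. The shorter genes were thus densely covered far into the body in both hairpins, where the longer genes were sparsely covered.

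**Figure D5:**
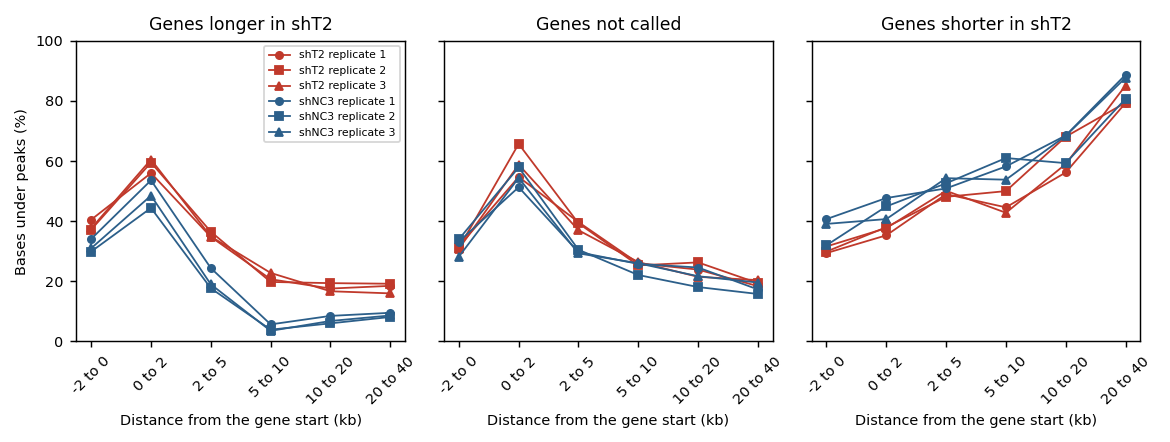
Percent of bases under peaks by distance from the gene start in kb, for the helicase genes called longer, not called and called shorter. Each line is 1 sample (red shT2, blue shNC3, shape for the replicate); in the longer genes the lines part most between 5 and 10 kb, at 19.8 to 22.8% in shT2 and 3.54 to 5.68% in shNC3, and the last points of the shorter genes rest on 4 genes.

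Merged over the 6 samples, the peaks at the helicase genes formed 339 regions. Of these, 119 (35.1%) held a peak in all 6 samples, against 20.6% of all 75622 regions. A further 32 (9.44%, against 5.86% of all) held a peak in all 3 shT2 samples and in no shNC3 sample. For the reverse pattern, a peak in each shNC3 sample and none in shT2, the count was 0 regions, against 2.85% of all. At equal depth these counts were 27 (8.63%, against 4.32% of all) and 1 (0.319%, against 3.64% of all).

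The 32 regions lay on 18 genes. DHX9 held 5 of them, DDX3X and DDX6 held 4 each, and DDX31, DDX47, DDX55 and DHX40 held 2 each. They were short and modest, with a median width of 986 bases and a median strongest fold over background of 4.83 in shT2, as the authors' peak caller gave it, against 3316 bases and 8.61 for the 119 regions of all samples. All 30 of them that lie on a gene with a known strand were more than 2 kb from its start, the nearest at 2.01 kb. The widest, of 2874 bases, lay 32.0 to 34.8 kb into DHX9.

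Several of these genes share peaks with a neighbour. DDX17 ends against KDELR3, which was itself longer (2.26), DDX55 overlaps EIF2B1 (2.11) and lies near TMED2, which was shorter (−0.39), DDX28 starts beside DUS2 (0.93), and DDX5 overlaps CEP95 (1.28). Among the shorter genes, DHX16 lies near PPP1R18 (−2.05) and DDX39A near ADGRE5 (−0.90). The peaks cannot be assigned to 1 gene of such a pair. Counting only bases outside every other gene's window, 42 helicase genes were tested and 17 were longer (24.2% of all) and 4 shorter (23.1% of all). DDX28 (0.02), DDX55 (0.21) and DDX19B (0.16) then had smaller differences and were not called longer. DDX52 (1.56), DHX16 (−0.57) and DDX41 (−0.51) were not called either, although their differences were no smaller than with all bases, and neither was DDX11 (−0.21). DDX17 was still called longer at 0.60 instead of 1.09, DDX5 at 0.60 and DDX39A shorter at −0.45. DHX8, which overlaps ETV4 (−0.21, called shorter), had a larger difference on these bases, at 0.99 instead of 0.18, and was called longer.

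Helicases outside the family were called about as often as other genes or less. Of 33 other RNA and DNA helicase genes, 27 were tested, with 7 (25.9%, against 24.1% of all tested genes) longer in shT2, 5 (18.5%, against 27.2%) shorter and 15 not called, and a median difference of 0.02. UPF1, the helicase of nonsense-mediated decay, covered 19.0, 20.5 and 19.7 kb in shT2 and 27.3, 27.7 and 26.6 kb in shNC3 (−0.46, adjusted p = 0.00021). SUPV3L1 (2.61), MTREX (no peak in shNC3) and WRN (0.91) were longer, and MOV10 (−0.61) was shorter. Each of these 5 genes was separated between the hairpins.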

How the data were processed

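DRIP-seq with the S9.6 antibody was analysed in 6 SH-SY5Y samples, 3 per hairpin. Tools listed in the submitters' processing notes are MACS2 2.2.6, Bowtie2 2.4.4 and SAMtools, with the build hg38. Each deposited list gives the authors' peaks of 1 sample with an integer score, a fold enrichment (linear ratio), a −log10 p-value and a −log10 q-value, as the authors' peak caller wrote them (which control library entered the calling: not given in the sources used here). From these lists, peaks were merged per sample, covered bases were counted per gene (span plus 2 kb on each side, RefSeq GRCh38.p14), scaled to the mean total, and log2(value + 500) entered a 2-group model in limma (version 3.58.1, R 4.3.3; robust eBayes with a trend). The pseudocount of 500 bases shrinks the log2 differences of genes with short coverage. Genes covered in at least 3 of 6 samples (11769) were tested, with Benjamini-Hochberg adjustment over all of them and a threshold of 0.05. The same fit was run on the start, body and far end windows of genes with a strand in the promoter table (15842), on bases outside other genes' windows (both added after the data were seen) and at equal depth. Depth was recovered from the fold and p of each peak, which it reproduced at the summit for 99.6 to 99.9% of peaks. At some of the highest summits the p-values reached the smallest number the calculation could hold, so heights there are not given. Equal depth thinned the count at each summit and dropped peaks that then missed a common p cut, leaving the others at full width. Regions are peaks merged over samples, shared with an overlap of at least 1 base. The code was tested on simulated data. Genes named with values per sample are up to 12 called genes per direction, the hybrid-related list, the 5 genes with the longest coverage, 3 pairs of paralogs and up to 6 other helicases (some named by this rule are not reported here); a neighbour is named where it shares a peak. DDX6, DDX59, DHX8 and DHX15 fall outside this rule and were chosen after their values were seen. The members and lists were chosen with earlier results of these data known. No single-value permutation test was used, since 3 samples against 3 cannot go below p = 0.1.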

Additional observations from a re-analysis of the deposited data

How the results depend on the processing

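Of the 28 called helicase genes, 6 (4 longer, 2 shorter) kept their call under each of the alternatives that could be fitted for them. Taking only 2 kb around both gene ends left 7 longer helicase genes and 1572 longer genes in all, and the differences of DDX59 (−0.39), DHX33 (−0.50), DDX3X (−0.13), DDX47 (−0.0254), DDX31 (−0.0247) and DHX15 (−0.001) turned negative and were not called; this setting leaves the body out by construction. Keeping peaks with a fold of at least 5 gave 2 shorter helicase genes, 1843 longer and 1955 shorter genes in all, 1 shorter start, 11 longer and 2 shorter bodies, 4 longer and 3 shorter far ends, 18 regions of shT2 only and 1 of shNC3 only, with DDX59 at −0.46 and DDX11 at 0.0369. A −log10 q of at least 5 gave 9 shorter starts and DDX59 at −0.062. Without scaling there were 2 shorter helicase genes, 2044 shorter genes in all and 2 shorter bodies. Cutting all lists to an equal covered length gave 4 shorter genes, 2 shorter starts, 8 longer and 1 shorter bodies, 4 longer far ends and DDX59 at −0.14. Bases outside other genes' windows gave 4 shorter genes, a filter of 500 bases gave 2 shorter starts, equal depth gave 3 shorter far ends and 1 region of shNC3 only, and presence by a larger overlap of the region gave 1 region of shNC3 only. The cause of these changes was not tested. Leaving out 1 sample gave 18 to 20 longer and 5 to 7 shorter genes, 2100 to 2745 longer and 2346 to 2717 shorter genes in all, 1 to 4 shorter starts, 11 to 16 longer and 2 to 4 shorter bodies, and 2 to 8 longer and 2 to 7 shorter far ends. The start, body and far end windows, the bases outside other genes' windows and equal depth for regions were chosen after seeing the data. Sign changes between values that were not called are not counted here.

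The replicate numbers did not pair the samples (correlations of same-numbered deviations −0.023, −0.064 and −0.008). With the replicate block 19 helicase genes were longer and 7 shorter, DDX59 and DHX8 lost their calls, and 3 far ends were shorter rather than 6. Library depth differs between the hairpins throughout, and a covered length cannot show how strong a signal is or where an R-loop ends within a restriction fragment.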
